A study of Mus musculus with 18 samples.

Results

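The proteasome genes of mouse round spermatids (RS), the haploid germ cells that have finished meiosis and have not begun to elongate, were compared between WT, GRTH-KO and GRTH-KI mice. Members were taken by symbol, as every gene of the count table named Psm followed by a letter from a to g and a number (with the copy Psme2b), which gave 49 of 54232 genes. The testis subunit gene Psma8 and the activator gene Psme4 were described apart from the others. RNA was measured in 6 libraries per genotype, 18 in all, made from total RNA of testis RS without polyA selection. The mice were 75 to 85 days old in all 3 genotypes. KO mice lack GRTH, an RNA helicase of germ cells and Leydig cells encoded by Ddx25, and KI mice carry a human GRTH gene with a missense mutation that removes the phosphorylated form of the protein. Both genotypes lack elongating spermatids. RS were enriched by sedimentation in a BSA gradient, and the paper checked the purity of the fractions by DAPI staining. Other testis cells can still remain. None of the labels says whether a library came from 1 animal or from several, so p-values measure the spread between these libraries.

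The proteasome is the cell's main machine for breaking down proteins tagged with ubiquitin. Its 20S core is a barrel of alpha rings, which gate the entrance, around beta rings, some of whose subunits cut peptide bonds, and the core opens when a cap binds it: the 19S particle, which recognises and unfolds ubiquitin-tagged proteins, the 11S (PA28) rings, or PA200. Male germ cells build a form of their own, in which Psma8 takes the place of Psma7 in the alpha ring and PA200, the product of Psme4, is abundant, and this form is known for removing histones and meiotic proteins.

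Total counts on genes lay between 18766971 and 26776555 per library. Ddx25 lay between 538 and 607 CPM (counts scaled to a fixed library total) in WT, between 47.7 and 90.9 CPM in KO and between 0.0456 and 0.519 CPM in 5 KI libraries, and at 56.9 CPM in the library labelled KI 4, within the range of KO. By the median over genes of the squared difference between a pair of libraries over that expected from counting, the closest pair in the series was KI 4 and KO 2 (1.59), and the pairs KO 4 and 5, WT 1 and 2, KI 1 and 2, KI 3 and 5, WT 3 and 4, and WT 5 and 6 followed (2.12 to 3.001, against 4.62 for the next pair). The counts below are therefore also given without KI 4 and with those 6 pairs within a genotype summed. Of marker lists for testis cells, all 6 elongating spermatid genes were called lower in both genotypes, with a summed level of 12045 to 16869 CPM in WT, 1429 to 3370 CPM in KO and 1811 to 2902 CPM in KI. That list holds Tnp2 and Prm2, whose mRNA the paper describes as made already in RS and kept for later translation. Its sum can therefore come from RS as well as from later cells. All 6 Leydig cell genes were called higher in both, with a summed level of 10.8 to 22.4 CPM in WT, 33.9 to 57.9 CPM in KO and 14.5 to 74.4 CPM in KI. Of 7 RS markers, 1 was called lower in KO and 3 in KI, beside 13.5% and 15.4% of all genes, and 0 were higher. Their summed level was 525 to 852 CPM in WT, 451 to 911 CPM in KO and 424 to 595 CPM in KI, so the groups overlapped. In bulk RNA, fewer cells of a type and less RNA per cell cannot be told apart, and the part of other cells in the results below was not tested unless a value says otherwise.

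In WT, transcripts of nearly all subunits of the 20S core and the 19S cap were present, and those of the immune forms were at or near the floor of 3 counts. Levels between genes were compared as CPM per kb of exon, averaged over 6 libraries, where the length merges all annotated exons, so a gene with long rare exons reads low. Psmc3, a 19S ATPase that helps to pull substrates into the core, was the highest at 334 ± 46.3 CPM per kb (SD, n = 6), and Psma6, the alpha1 subunit, was next at 300.0 ± 30.8 CPM per kb. These genes did not differ beyond their spread, and both stood well above Psme4 at 85.6 ± 7.59 CPM per kb. Psme4, Psmd2 (a 19S scaffold, 82.1 ± 11.1 CPM per kb), and Psmb6 (a cutting subunit of the beta ring, 80.6 ± 24.2 CPM per kb) could not be ordered, since their spreads overlapped.

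**Figure D1:**
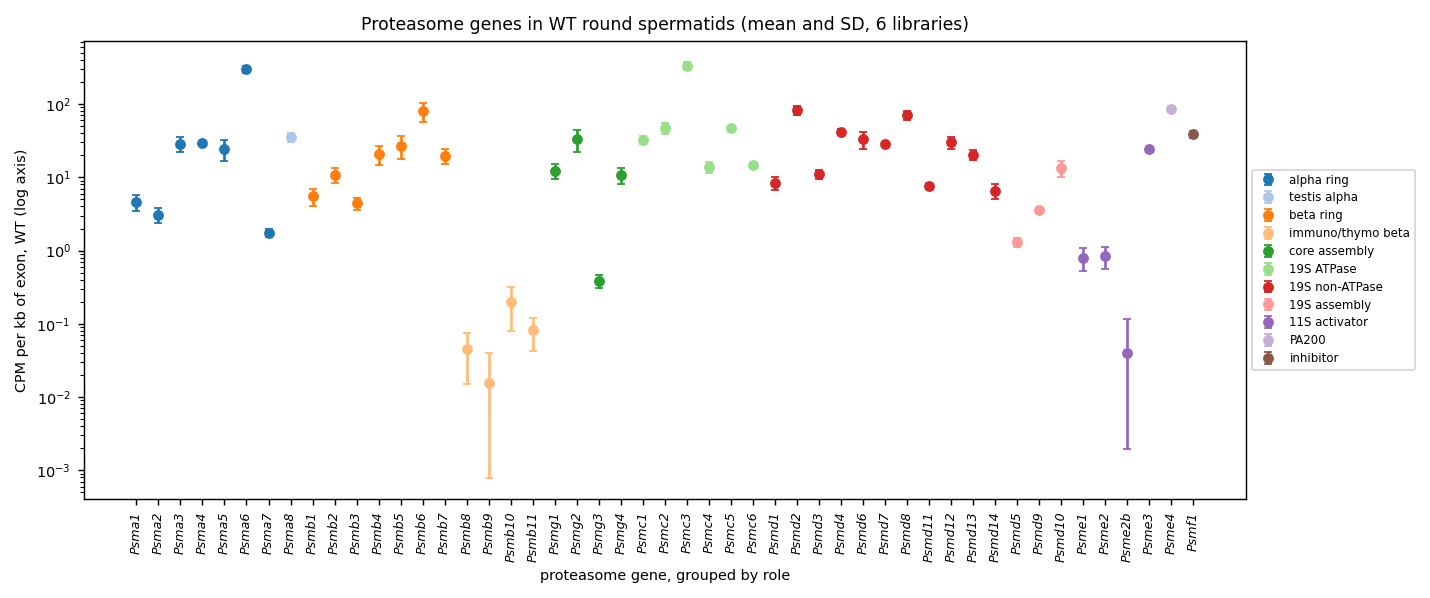
Level of each of the 49 proteasome genes in WT RS as CPM per kb of exon on a log axis, with genes grouped by role; points are means and bars the SD over 6 libraries, with the lower bar shortened where the SD exceeds the mean. Psmc3 (334) and Psma6 (300.0) stand at the top, and Psmb8, Psmb9, Psmb10, Psmb11 and Psme2b lie at the bottom, at 0.201 CPM per kb or less.

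The alpha ring was uneven in its transcripts although the particle holds its subunits in equal number. Its 7 standard genes spanned 1.74 CPM per kb for Psma7 to 300.0 CPM per kb for Psma6, a ratio of 172, with a median of 24.5. This ratio depends on the exon lengths used. The merged length is 3071 bases in Psma7 and 1234 in Psma6, and the longest transcript 1515 and 1042. The 7 standard beta genes spanned 4.45 (Psmb3) to 80.6 (Psmb6) CPM per kb, the 6 ATPase genes of the 19S base 13.6 (Psmc4) to 334 (Psmc3), and the 11 other 19S genes 6.55 (Psmd14, the deubiquitinating subunit) to 82.1 (Psmd2). Among the assembly chaperones of the core, Psmg2 was the highest at 33.0 ± 11.1 CPM per kb and Psmg3 the lowest at 0.385 ± 0.0779 CPM per kb.

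The immune forms of the cutting subunits, which interferon induces in somatic cells, were at most barely detected. Psmb8 had between 0 and 4 counts in the WT libraries, between 2 and 10 in KO and between 1 and 8 in KI, and Psmb9 between 0 and 4, 0 and 3, and 0 and 3 counts. Psmb10 had 4 to 16, 6 to 18 and 4 to 14 counts, and the thymus subunit gene Psmb11 had 3 to 14, 8 to 19 and 1 to 19 counts. Psmb8, Psmb9 and Psme2b did not pass the filter on low counts and were not tested, which left 46 of the 49 members. Psme2b had 3 counts or fewer in each of the 18 libraries and shares 69.3% of its 50-base exon windows with other genes, mostly Psme2, so its reads cannot be assigned with certainty. Psmb10 and Psmb11 had log2 fold changes of 0.67 ± 0.38 and 0.45 ± 0.42 in KO and of 0.25 ± 0.39 and 0.20 ± 0.43 in KI (± SE), with adjusted p of 0.218, 0.510, 0.695 and 0.795 by edgeR's quasi-likelihood test.

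Proteasome genes were called in both directions in each genotype. In KO against WT, 6 of 46 members (13%) were higher and 9 (19.6%) were lower (edgeR's quasi-likelihood test for a change of any amount, Benjamini-Hochberg adjusted p under 0.1). Of all 21058 genes tested, 16.4% were called higher and 13.5% lower. In KI against WT, 4 members (8.7%) were higher and 8 (17.4%) lower, beside 16.1% and 15.4% of all genes. These shares were not tested against each other, and the higher counts moved on leaving out 1 library: 3 members were higher in KO without KO 2, and 8 were higher in KI without WT 3 and also without KI 5. Shares over all genes are not given for those fits. The median log2 fold change of the members was 0.01 in KO and -0.07 in KI, beside 0.03 and 0.05 over all genes tested. The KO and KI comparisons share the WT libraries, so the 3 genes higher in both (Psma8, Psme1 and Psme2) and the 8 lower in both (Psma3, Psma5, Psma6, Psmb2, Psmc6, Psmd10, Psmf1 and Psmg2) are partly fixed by the same WT values.

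None of the 46 members was called past 1 log2 unit (glmTreat, adjusted p under 0.1), beside 0.598% of all genes higher and 1.13% lower in KO and 0.522% higher and 1.43% lower in KI. The lowest adjusted p was 0.621 in KO, and in KI it was 0.123, for Psmd10. With the interval form of the null, which was added after the values were seen, Psmd10 was called in KI (adjusted p = 0.0250, glmTreat). The share of all genes called with that form is not given. At an unadjusted p under 0.05, glmTreat gave 1 member in KO and 1 in KI, beside 3.47% and 3.93% of all genes, and DESeq2 called 0 members past 1 log2 unit in both. By the test for any amount, 17 members in KO and 15 in KI had an unadjusted p under 0.05, beside 34.2% and 35.6% of all genes.

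Scaling changed the split between higher and lower. With library totals in place of TMM factors, which moved the median of all genes by 0.12 in KO and 0.15 in KI on the log2 scale, 10 members were higher and 7 lower in KO, and 12 higher and 6 lower in KI. Over all genes, 24.8% were then called higher and 10.2% lower in KO, and 26.7% and 11.8% in KI. Higher calls thus made up 40.0% of the members' calls in KO and 33.3% in KI with TMM, and 58.8% and 66.7% with totals, while over all genes the share moved from 55.0% to 70.8% in KO and from 51.1% to 69.4% in KI. Changes below are relative to the TMM scale, and every call named below kept its direction with totals.

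Without KI 4, 3 members were higher and 8 lower in KI, beside 14.5% and 15.8% of all genes. With the close pairs summed and KI 4 left out, which left 3 WT, 5 KO and 3 KI libraries, 2 members were higher and 5 lower in KO, and 0 higher and 5 lower in KI (edgeR's quasi-likelihood test). Of the 23982 genes tested in that fit, 47 of them members, 7.94% were higher and 7.62% lower in KO, and 5.32% higher and 6.87% lower in KI. Psma5, Psma6, Psmd10 and Psmf1 were called lower in both comparisons in that fit, and also in every other alternative tried. That fit also kept Psmc6 lower and Psma8 and Psme2 higher in KO, and Psmg2 lower in KI, and lost the other calls. With library totals, Psmb2 in both genotypes, Psmd9 in KO and Psmc6 in KI lost their calls.

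**Figure D2:**
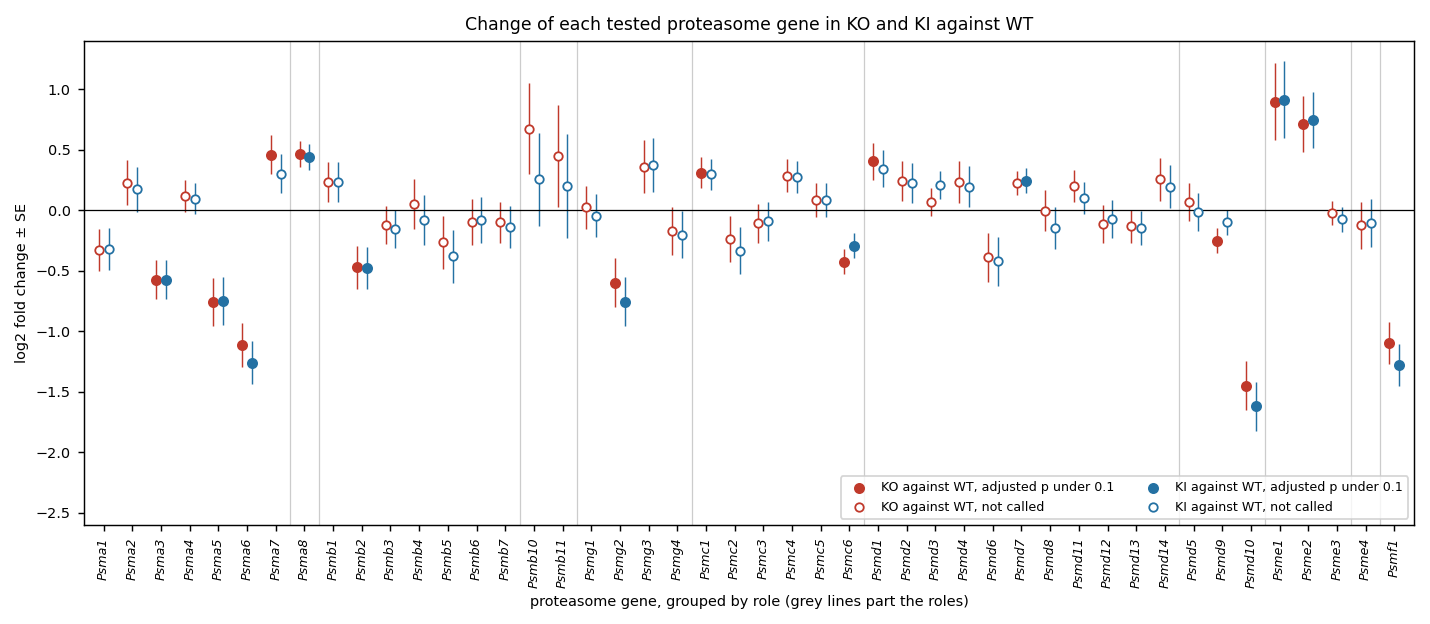
Log2 fold change of the 46 tested proteasome genes in KO (red) and KI (blue) against WT, grouped by role, with bars of 1 SE; filled points have an adjusted p under 0.1 by edgeR's quasi-likelihood test. Psmd10, Psma6 and Psmf1 lie below -1 in both genotypes, Psma8, Psme1 and Psme2 are filled above 0, and most other points are open and within 0.5 of 0.

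KO and KI did not differ detectably in any member. In KI against KO, 0 of 46 members were called in either direction by edgeR's quasi-likelihood test, 0 had an unadjusted p under 0.05, and the lowest adjusted p was 0.961, beside 0.076% of all genes called higher and 0.0237% called lower. DESeq2 also called 0 members. For the largest falls against WT, and with KI 4 kept, KI minus KO was -0.17 log2 units in Psmd10 (95% interval -0.56 to 0.23). It was -0.15 in Psma6 (-0.49 to 0.20) and -0.18 in Psmf1 (-0.51 to 0.15). Leaving out KI 4 put Psmd10 at -1.73 in KI beside -1.45 in KO, each against WT, and Psmg2 at -0.90 beside -0.60. Psma6 then stood at -1.25 beside -1.11, and Psmf1 at -1.28 beside -1.10. In that fit too, 0 members were called in KI against KO. A gene called in 1 genotype only (Psma7, Psmc1, Psmd1 and Psmd9 in KO, Psmd7 in KI) was therefore not shown to differ between them.

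The alpha ring held the largest fall of a core subunit. Psma6 (chr12:55384222-55418454, GRCm38), which encodes alpha1, ran from 325 to 419 CPM in WT with median 377, from 90.4 to 226 CPM in KO with median 178, and from 106 to 181 CPM in KI with median 160. All libraries of KO and KI were below all WT libraries, with KO 3 the lowest. Psma6 fell by 1.11 ± 0.18 on the log2 scale in KO (adjusted p = 9e-05) and by 1.26 ± 0.18 in KI (adjusted p = 1.8e-05, edgeR's quasi-likelihood test). Without KO 3 the fall in KO was 0.98.

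Psma5 and Psma3, which encode alpha5 and alpha7, also fell in both genotypes. Psma5 (chr3:108256926-108279974) ranged over 22.04 to 46.3 CPM in WT (median 30.6), 15.3 to 24.1 CPM in KO (median 18.4) and 13.4 to 25.5 CPM in KI (median 19.7). The groups overlapped, and the WT values split into WT 3 and 4 at 46.3 and 42.4 CPM and WT 1 and 2 at 22.04 and 22.4 CPM. Its log2 fold change was -0.76 ± 0.20 in KO (adjusted p = 0.00740) and -0.75 ± 0.20 in KI (adjusted p = 0.00693, edgeR's quasi-likelihood test). Psma3 ranged over 85.5 to 145 CPM in WT (median 106), 63.8 to 87.6 in KO (median 73.3) and 55.8 to 93.2 in KI (median 76.6), with a log2 fold change of -0.57 ± 0.16 in both (adjusted p = 0.0108 in KO and 0.0100 in KI, edgeR's quasi-likelihood test). In Psma5, 49.96% of the 50-base exon windows also occur in other genes, and in Psma3 15.4% do, so uniquely assigned reads may cover only part of these genes. Psma1, Psma2 and Psma4 were not called in either comparison, with log2 fold changes from -0.33 to 0.23.

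Summed over the 7 standard alpha genes, the level per length in WT was 393 ± 29.7 CPM per kb, against 215 ± 38.6 for KO and 200.4 ± 37.4 for KI (SD, n = 6), and most of that difference was Psma6, at 300.0, 139 and 125 CPM per kb. The summed beta ring was 169 ± 47.8, 156 ± 27.1 and 153 ± 40.1 CPM per kb, so the sums of the beta genes differed by less than the spread between libraries.

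Psma8 was higher in both genotypes, and its share of the Psma7 and Psma8 pair hardly moved. Psma8 ran from 50.5 to 69.1 CPM in WT with median 59.9, from 74.9 to 89.0 CPM in KO with median 82.2, and from 69.9 to 94.3 CPM in KI with median 82.1. No KO or KI library overlapped WT, and the margin in KI was narrow, with KI 6 at 69.9 CPM against WT 6 at 69.1 CPM. Psma8 rose by 0.47 ± 0.11 on the log2 scale in KO (adjusted p = 0.00286) and by 0.44 ± 0.11 in KI (adjusted p = 0.00400, edgeR's quasi-likelihood test). Without KI 4 the KI value was 0.43 (adjusted p = 0.00858), and with close pairs summed it was 0.49 in KO (adjusted p = 0.0669) and 0.44 in KI, where it was not called (adjusted p = 0.153, edgeR's quasi-likelihood test). KI and KO differed by -0.02 (95% interval -0.24 to 0.19).

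Psma7 ran from 4.23 to 5.94 CPM in WT with median 5.47, from 6.16 to 8.47 CPM in KO with median 7.52, and from 4.53 to 9.65 CPM in KI with median 6.66. The KO libraries were all above WT and the KI libraries overlapped it, with KI 4 the highest. The log2 fold change was 0.46 ± 0.16 in KO (adjusted p = 0.0426) and 0.30 ± 0.16 in KI (adjusted p = 0.188, edgeR's quasi-likelihood test). Per kb, Psma8 made up 95.2% ± 0.951 of the pair in WT, against 95.3% ± 0.657 for KO and 95.7% ± 1.14 for KI (SD, n = 6). These shares differed by less than the spread between libraries. They depend on the exon lengths used, and were 89.6%, 89.8% and 90.6% with the longest transcript of each gene.

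The spermatocyte markers, which mark the stage before RS, moved unevenly beside Psma8: 3 of 6 were called higher and 1 lower in KO, 2 higher and 1 lower in KI, and the summed level was 849 to 1138 CPM in WT, 954 to 1169 in KO and 948 to 1308 in KI. The groups overlapped in that sum, and its part in the Psma8 difference was not tested.

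In the beta ring, Psmb2 was the only gene called. It encodes beta4, which does not cut, and ranged over 9.36 to 15.9 CPM in WT (median 13.9), 6.87 to 12.1 in KO (median 9.15) and 6.92 to 11.7 in KI (median 9.42). The groups overlapped through WT 1 and 2, at 9.37 and 9.36 CPM. Its log2 fold change was -0.47 ± 0.17 in KO (adjusted p = 0.0532) and -0.48 ± 0.17 in KI (adjusted p = 0.0485, edgeR's quasi-likelihood test). The KO call was lost on leaving out WT 3, WT 4, WT 5 or KO 1, and the KI call on leaving out WT 3, WT 4, KI 3 or KI 5. Psmb5, Psmb6 and Psmb7, the cutting subunits, had log2 fold changes of -0.27, -0.10 and -0.10 in KO and -0.38, -0.08 and -0.14 in KI and were not called. In Psmb5, 54.1% of the exon windows occur in other genes.

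Among the chaperones that assemble the core, Psmg2, which pairs with Psmg1 to build the alpha ring, was lower in both genotypes. It ranged over 25.6 to 51.6 CPM in WT (median 29.1), 20.6 to 29.6 CPM in KO (median 21.2) and 13.3 to 30.6 CPM in KI (median 20.04). WT 3 and 4 were well above the other WT libraries and the groups overlapped. The log2 fold change was -0.60 ± 0.20 in KO (adjusted p = 0.0346) and -0.76 ± 0.20 in KI (adjusted p = 0.00787, edgeR's quasi-likelihood test), and with close pairs summed the KO value was not called (-0.57, adjusted p = 0.117). Psmg1, Psmg3 and Psmg4 were not called.

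In the 19S base, 1 of 6 ATPase genes was lower in both genotypes. Psmc6 ran from 45.9 to 56.0 CPM in WT with median 52.1, from 35.3 to 40.8 CPM in KO with median 37.6, and from 34.3 to 50.2 CPM in KI with median 40.9. The KO libraries were below all of WT, and KI overlapped it. Psmc6 changed by -0.43 ± 0.10 in KO (adjusted p = 0.00415) and by -0.30 ± 0.10 in KI (adjusted p = 0.0396, edgeR's quasi-likelihood test), and the KI call was lost with close pairs summed (-0.22, adjusted p = 0.496) and with library totals (-0.14, adjusted p = 0.369). Psmc1 was higher in KO by 0.31 ± 0.13 (adjusted p = 0.0906) and had 0.30 ± 0.13 in KI (adjusted p = 0.102, edgeR's quasi-likelihood test). The other 4 ATPase genes were not called.

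Of the 11 other 19S genes, Psmd1 was called in KO and Psmd7 in KI, both higher, and none was lower. Psmd1, which encodes a scaffold that holds ubiquitin receptors, ranged over 45.9 to 73.2 CPM in WT (median 65.9), 73.5 to 89.5 in KO (median 79.3) and 60.3 to 102 in KI (median 73.2). KO 1, at 73.5 CPM, was just above the highest WT library, and KI overlapped WT. Its log2 fold change was 0.40 ± 0.15 in KO (adjusted p = 0.0576) and 0.34 ± 0.15 in KI (adjusted p = 0.103, edgeR's quasi-likelihood test), and part of its exons overlap Gm21972 on the same strand. Psmd7, a lid subunit that pairs with Psmd14, ranged over 61.2 to 68.2 CPM in WT (median 65.6), 68.8 to 86.8 in KO (median 75.9) and 69.7 to 90.6 in KI (median 71.9). Neither KO nor KI overlapped WT, and the log2 fold change was 0.23 ± 0.10 in KO (adjusted p = 0.113) and 0.25 ± 0.10 in KI (adjusted p = 0.0810, edgeR's quasi-likelihood test). The ubiquitin receptor gene Psmd4 and the deubiquitinase gene Psmd14 had log2 fold changes of 0.23 and 0.25 in KO and 0.19 and 0.19 in KI and were not called.

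Psmd10, the chaperone gankyrin that helps to assemble the 19S base, showed the largest change of the 46 members. Psmd10 (chrX:140948429-140956728) ran from 14.4 to 26.5 CPM in WT with median 17.97, from 6.10 to 9.61 CPM in KO with median 6.87, and from 3.97 to 8.89 CPM in KI with median 6.52. Every KO and KI library was below every WT library. Within KI, libraries 1, 2 and 4 were at 7.86, 8.22 and 8.89 CPM and libraries 3, 5 and 6 at 4.43, 3.97 and 5.18 CPM. Psmd10 fell by 1.45 ± 0.20 on the log2 scale in KO (adjusted p = 1.4e-05) and by 1.62 ± 0.20 in KI (adjusted p = 3.1e-06, edgeR's quasi-likelihood test), and by 1.73 in KI without KI 4. Of the other base chaperones, Psmd9 changed by -0.25 ± 0.10 in KO (adjusted p = 0.0787) and had -0.10 ± 0.10 in KI (adjusted p = 0.527, edgeR's quasi-likelihood test), with 24.9% of its exon windows shared, mostly with the antisense gene Gm26745, and Psmd5 was not called.

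The activators moved apart from one another. Psme1 and Psme2 encode the subunits of PA28, a cap that interferon induces and that somatic and immune cells express strongly. Psme1 ran from 1.28 to 2.94 CPM in WT with median 1.63, from 1.91 to 5.501 CPM in KO with median 3.19, and from 1.51 to 5.503 CPM in KI with median 3.27. KO 2 and KI 4 were the highest, KO 1 and 6 and KI 3, 5 and 6 were within the range of WT, and WT 6 stood above the other WT libraries. Psme1 rose by 0.90 ± 0.32 in KO (adjusted p = 0.0434) and by 0.91 ± 0.32 in KI (adjusted p = 0.0383, edgeR's quasi-likelihood test). The KO call was lost without KO 2 (0.69, adjusted p = 0.135) and the KI call without KI 4 (0.71, adjusted p = 0.109), and both were lost with close pairs summed (adjusted p = 0.144 and 0.312).

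Psme2 ran from 0.853 to 1.98 CPM in WT with median 1.58, from 1.69 to 3.62 CPM in KO with median 2.24, and from 1.82 to 2.97 CPM in KI with median 2.50. The groups overlapped. Psme2 rose by 0.71 ± 0.23 in KO (adjusted p = 0.0281) and by 0.74 ± 0.23 in KI (adjusted p = 0.0207, edgeR's quasi-likelihood test), and 28.3% of its exon windows are shared with Psme2b. Psme3, whose product forms the nuclear PA28 ring of germ cells and other cells, had 24.3 CPM per kb in WT against 0.802 for Psme1 and 0.836 for Psme2, and was not called, with 71.8 ± 5.83 CPM in the WT libraries, 70.5 ± 6.12 CPM in those of KO and 68.1 ± 7.20 CPM in those of KI (SD, n = 6).

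Leydig cells make testosterone outside the seminiferous tubules, and the isolation began with a collagenase digestion meant to remove them. The summed level of their markers was 51.1, 74.4 and 55.2 CPM in KI 1, 2 and 4, where Psme1 was 3.93, 4.83 and 5.503 CPM, and 18.99, 14.5 and 20.2 CPM in KI 3, 5 and 6, where Psme1 was 1.51, 1.59 and 2.61 CPM. This split within KI was not particular to Psme1. Of 46 members, 43 were lower in KI 3 and 5 than in KI 1 and 2, against 55.7% of all genes. WT 6, the highest WT library for Psme1, was also the highest for the Leydig sum, at 22.4 CPM. In KO 1 to 6 the Leydig sum was 34.9, 57.9, 34.2, 53.3, 52.6 and 33.9 CPM, where Psme1 was 2.34, 5.501, 3.18, 3.20, 3.64 and 1.91 CPM. KO 2 was the highest and KO 6 the lowest in both, while KO 3 and 4 had nearly the same Psme1 level at unlike Leydig sums. Psme2 was 2.25, 2.67 and 2.79 CPM in KI 1, 2 and 4, and 2.97, 1.82 and 2.33 CPM in KI 3, 5 and 6. Its highest KI library, KI 3, thus had a lower Leydig sum than KI 1, 2 and 4. In KO and WT, Psme2 was highest in KO 2 and WT 6. Of the leukocyte markers, 2 of 6 were called higher in each comparison, and their summed level was 5.35 to 14.2 CPM in WT, 8.50 to 18.1 in KO and 10.8 to 19.3 in KI. None of the Leydig or leukocyte markers was at the floor. The part of these cells in the Psme1 and Psme2 values was not tested.

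Psme4, the PA200 gene (chr11:30771726-30880361), was the most abundant activator per length and was not called in either genotype. It ran from 616 to 791 CPM in WT with median 723, from 339 to 891 CPM in KO with median 722, and from 516 to 872 CPM in KI with median 615. KO and KI libraries lay on both sides of the WT range, with KO 3 at 339 CPM the lowest and KO 1, KI 1 and KI 2 above all of WT. The log2 fold change was -0.12 ± 0.19 in KO (95% interval -0.51 to 0.26, adjusted p = 0.716) and -0.11 ± 0.19 in KI (95% interval -0.49 to 0.28, adjusted p = 0.751, edgeR's quasi-likelihood test), and changes within these intervals were not detectable at this spread. Without KO 3 the KO value was 0.0095. With library totals the KI value was 0.04. The spread of Psme4 was wider in KO (SD 198 CPM) and KI (SD 168 CPM) than in WT (SD 63.6 CPM), and this difference in spread was not tested.

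Psmf1 encodes PI31, a protein that binds the core and inhibits it in vitro. Psmf1 (chr2:151715812-151744186) ran from 214 to 282 CPM in WT with median 256, from 60.2 to 144 CPM in KO with median 124, and from 79.6 to 119 CPM in KI with median 109. No KO or KI library reached the WT range, and KO 3 was again the lowest. Psmf1 fell by 1.10 ± 0.17 on the log2 scale in KO (adjusted p = 5.7e-05) and by 1.28 ± 0.17 in KI (adjusted p = 8.4e-06, edgeR's quasi-likelihood test). Psma6, Psmf1 and Psmd10 share no 50-base exon window with another gene. The elongating spermatid markers fell beside them, and their summed level was lowest in KO 3 (1429 CPM) in KO and in KI 3 (1811 CPM) in KI, the libraries that were also lowest for Psma6 and Psmf1. Psmd10 was instead lowest in KO 6 (6.10 CPM) and in KI 5 (3.97 CPM). Psme4, Psmc3 and Psmd2, which were not called, were also lowest in KO 3 and KI 3. RNA of these markers can come from RS as well as from later cells, and the part of either in these falls was not tested.

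**Figure D3:**
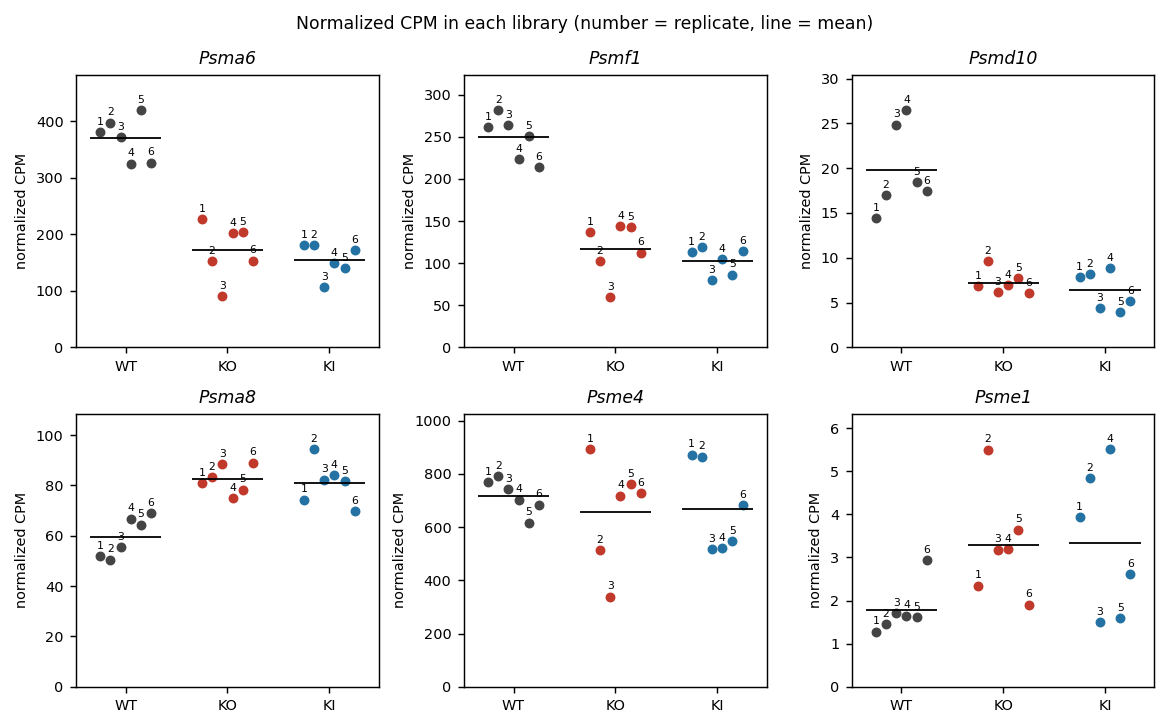
Normalized CPM of Psma6, Psmf1, Psmd10, Psma8, Psme4 and Psme1 in each WT, KO and KI library, on linear axes from 0; the number beside a point is the replicate and the line is the mean of 6. WT lies above all KO and KI points for Psma6, Psmf1 and Psmd10 and below them for Psma8, while the groups overlap for Psme4 and Psme1.

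Counted by library ranges, 5 members lay wholly above WT in KO (Psma7, Psma8, Psmc1, Psmd1 and Psmd7) and 4 wholly below (Psma6, Psmc6, Psmd10 and Psmf1), beside 6.62% and 6.44% of all genes. In KI, 2 lay wholly above (Psma8 and Psmd7) and 3 wholly below (Psma6, Psmd10 and Psmf1), beside 5.97% and 7.91% of all genes.

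Many members differed between close pairs of libraries of the same genotype. Of the 46 members, 32 had their lowest WT value in WT 1 or 2, against 29.9% of all genes tested, and 25 had their highest in WT 3 or 4, against 36.4%. The mean of WT 3 and 4 was over 1.5 times that of WT 1 and 2 in 15 members and in 11.7% of all genes, and was below it in 12 members and in 51.6% of all genes. The 15 held them Psma3, Psma5, Psmb2, Psmd10 and Psmg2, which were called lower in both genotypes, and did not hold Psma6 or Psmf1. In KI, 43 of 46 members were lower in KI 3 and 5 than in KI 1 and 2, against 55.7% of all genes, and 34 were lower by a ratio under 0.75, against 31.9%. Members are not replicates, and these counts describe single pairs of libraries.

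**Figure D4:**
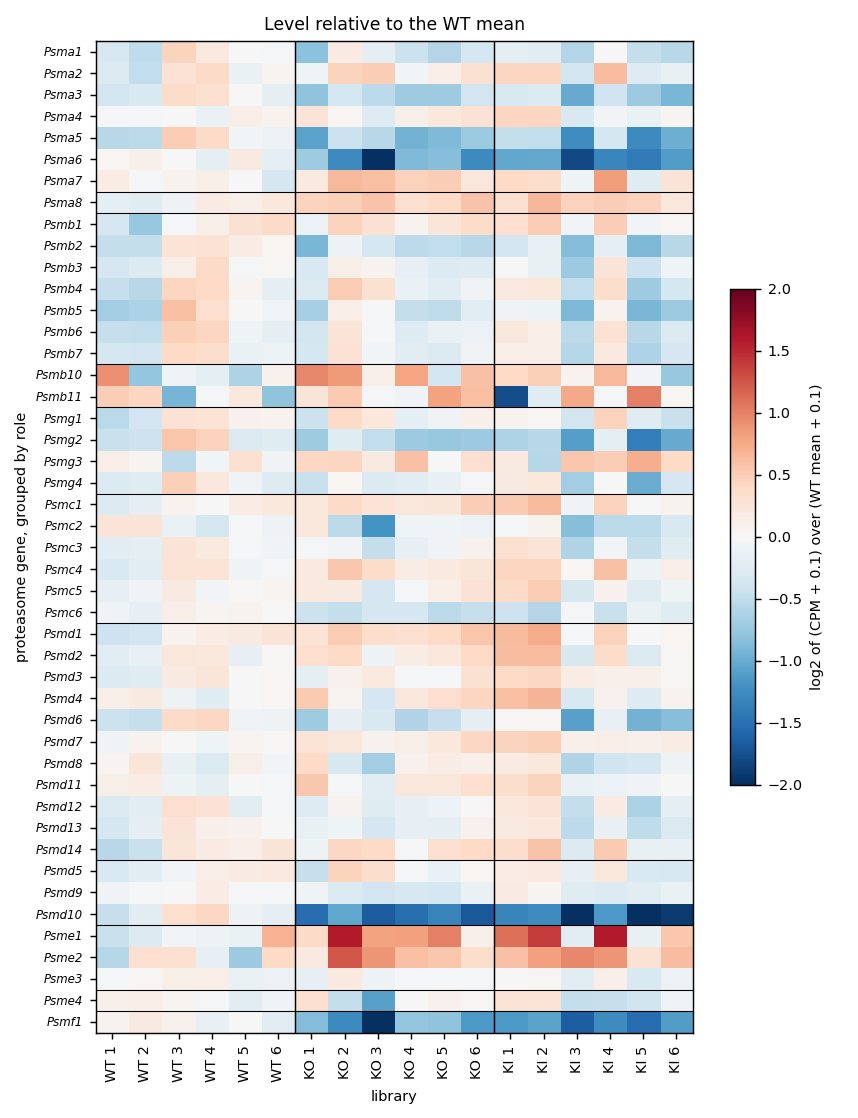
Level of the 46 tested proteasome genes (rows, by role) in the 18 libraries (columns), as log2 of CPM plus 0.1 over the WT mean plus 0.1, with colours held at 2 and -2. Psma6, Psmd10 and Psmf1 are blue in every KO and KI library and Psma8 is red in them, while 15 rows are over 1.5 times higher in WT 3 and 4 than in WT 1 and 2.

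Of 20 proteasome partners that are not members by symbol, 19 were in the table and tested (Paaf1 was not matched). In KO, 5 were higher and 1 lower, and in KI, 6 were higher and 2 lower (edgeR's quasi-likelihood test), where 16.4% and 13.5% of all genes were called in KO and 16.1% and 15.4% in KI. The median log2 fold change of the partners was 0.08 in KO and 0.14 in KI. Nfe2l1, a transcription factor known to drive proteasome genes when proteasome activity is short, rose from a WT level of 21.1 ± 1.83 CPM to 35.6 ± 1.98 CPM in KO and 34.9 ± 6.603 CPM in KI (SD, n = 6), with log2 fold changes of 0.75 (adjusted p = 5.4e-05) and 0.72 (adjusted p = 7.3e-05, edgeR's quasi-likelihood test). Ddi2, the protease that releases the active form of that factor, rose by 0.73 (adjusted p = 8e-05) and 0.61 (adjusted p = 0.000453, edgeR's quasi-likelihood test).

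The other largest changes of the partners were in ubiquitin shuttles and proteasome-bound factors. Ubqln2, a shuttle, rose by 0.80 in KO (adjusted p = 0.0110) and had 0.51 in KI, where it was not called (adjusted p = 0.103, edgeR's quasi-likelihood test). Zfand5, which binds and activates the proteasome, rose by 0.64 in KO (adjusted p = 0.00025) and by 0.49 in KI (adjusted p = 0.00256, edgeR's quasi-likelihood test). The shuttle Rad23b fell by 0.43 in KO (adjusted p = 0.0886) and by 0.70 in KI (adjusted p = 0.00569, edgeR's quasi-likelihood test), and Adrm1, a ubiquitin receptor of the 19S cap, fell by 0.39 in KI (adjusted p = 0.0197, edgeR's quasi-likelihood test). No partner was called in KI against KO.

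Promoter sequence of the members was searched for 4 elements on both strands: the antioxidant response element TGANNNNGC, the cAMP response element TGACGTCA, the A-MYB element AACNGNC and the ETS core GGAAG, of which the first 2 share their first 3 letters. RefSeq gave 44 promoters for 41 of the 49 members (GRCm38.p6, 250 bases before to 50 after the start). The A-MYB element, named for the factor that drives many genes of spermatocytes and spermatids, was in 45.5% of the members' promoters and 32.8% of all 32851 promoters. The other elements were in 56.8%, 0% and 88.6% of the members' promoters and 41.3%, 1.79% and 71.4% of all, in the order above. Of the 8 genes lower in both genotypes, 6 had a promoter entry, and 4 of these (Psma6, Psmf1, Psma5 and Psma3) had an A-MYB element before a RefSeq start. For Psma6 and Psmf1 that start, at positions 55398825 and 151741310, lies inside the gene span given above, and the other Psma6 entry, at 55384222, held none. Psmc6 and Psmd10, lower in both, held none, while Psmc1, higher in KO, held 2 and Psme4, not called, held 1. The sequences of Psma6, Psmf1, Psma5 and Psma3 are shown because these genes hold the largest falls of the alpha ring and of the core inhibitor. That of Psme4, which was not called, is shown beside them. Each is given as 30 bases on the gene's own strand with the element in capitals, at chr12:55398653-55398682 (+), chr2:151741443-151741472 (-), chr3:108256691-108256720 (+), chr12:70974515-70974544 (+) and chr11:30771525-30771554 (+).
Psma6: cagaacgcactAACGGCCggctgcgaccca
Psmf1: ccccaggaacgAACAGCCtggcactcagca
Psma5: ccggctggcagAACTGCCgggcacgctggt
Psma3: cttctccagggAACCGCCtctatggtttct
Psme4: cgtaAACTGGCccagaagagaggatactga
A match of letters is a description and not a bound site.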

How the data were processed

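The authors trimmed paired reads with cutadapt 3.4, aligned them to GRCm38 (mm10 per the labels) with STAR 2.7.8a and counted them by strand on GENCODE genes with featureCounts of Subread 2.0.1; as deposited, the raw counts cover 54232 genes, with 1 merged exon length each, and were used unchanged. Symbols and positions came from GENCODE on the same build and named 54079 genes. Every value column was mapped to a library by its label (0 were not).

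Counts were scaled by TMM, filtered with filterByExpr (21058 genes) and fitted in one edgeR 4.0.16 quasi-likelihood model of genotype over 18 libraries (R 4.3.3, limma 3.58.1), with glmQLFTest for any amount, glmTreat for 1 log2 unit, Benjamini-Hochberg adjustment over all genes and a threshold of 0.1. SE is the absolute log2 fold change over the square root of F, and 95% intervals are 1.96 SE on either side. Levels are CPM on TMM library sizes, per kb of that exon length between genes. The fit was tested on simulated counts. A count of 3 or fewer was taken as the floor; floors cover counting error only. Totals were 18766971 to 26776555 counts, and counting error is part of the spread between libraries given beside each value.

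The members, roles, partner list, markers, motifs and alternatives were chosen with earlier results of these data known. Genes given in full were Psma8, Psma7, Psme4, the immune and thymus beta genes and the 5 largest called rises and falls per comparison, with the 3 largest changes of the partner list per direction; Psma3, Psmb2, Psmb5, Psmb6, Psmb7, Psmc6, Psmc1, Psmc3, Psmd2, Psmd4, Psmd9, Psmd14, Psme3 and the other members are named so that every member is accounted for. Replicate numbers were checked for pairing by the correlation of same-numbered libraries' deviations from their group means, which ranged from -0.53 to 0.57. Differently numbered libraries were not set beside them, so this check cannot decide whether the numbers pair the libraries. The main fit did not use the numbers. DESeq2 1.42.0, other scalings, filters, thresholds and subsets of libraries were alternatives. Reads shared between genes were estimated by exact 50-base exon windows. Figures were drawn with matplotlib 3.10.9 in Python 3.11.15.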

Additional observations from a re-analysis of the deposited data

Results flagged for a closer look

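Among 141 groups of 6 libraries (47 genes in 3 genotypes), 4 held 1 library far from the others by Dixon's criterion at the 95% level, and chance alone marks about 1 in 20 groups. The library labelled KI 4 had 56.94 CPM of Ddx25 against 0.0456 to 0.519 in the other KI libraries. WT 6 had 2.944 CPM of Psme1 against 1.28 to 1.70 in the other WT libraries, and also the highest summed Leydig marker level in WT, whose part was not tested. WT 4 had 29.29 CPM of Psmd9 against 24.9 to 26.5, and WT 1 had 0.7315 CPM of Psmb10 against 0.161 to 0.368.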

How the results depend on the processing

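Members called higher in KO numbered 6 (beside 16.4% of all genes), and 10 with library totals only (beside 24.8%). They numbered 3 without the filter on low counts, and 2 with close libraries summed and KI 4 left out (beside 7.94%). On leaving out each library they numbered 3 to 6 (3 without KO 2). Shares over all genes are not given for the fits without the filter, with the interval null and those leaving out 1 library, except KI 4. Members called lower in KO numbered 9 (beside 13.5% of all genes), and 5 with close libraries summed (beside 7.62%), and 7 to 9 on leaving out each library. Members called higher in KI numbered 4 (beside 16.1% of all genes), and 12 with library totals only (beside 26.7%). They numbered 0 with close libraries summed (beside 5.32%) and 7 without WT 5 and WT 6 (beside 18.3%). On leaving out each library they numbered 3 to 8 (8 without WT 3 and 8 without KI 5). Members called lower in KI numbered 8 (beside 15.4% of all genes), and 5 with close libraries summed (beside 6.87%), and 6 to 9 on leaving out each library. Members lower past 1 log2 unit in KI numbered 0 (beside 1.43% of all genes), and 1 with the interval null (added after the values were seen). They numbered 1 with the replicate block (beside 1.49%). On leaving out each library they numbered 0 to 1 (1 without WT 1, KI 1, KI 2 or KI 4, beside 1.51% without KI 4). The summed fit has fewer libraries by construction; the cause of the other shifts was not tested. Psma8 in KI was 0.44 with close libraries summed and lost its call. Psma8 in KI against KO, -0.02 and not called, changed sign with DESeq2 (0.018), DESeq2 size factors (0.018), library totals (0.0015), no filter (0.035), only the genotypes compared (0.040) and without WT 5 and WT 6 (0.043), and ran from -0.073 to 0.043 on leaving out each library. Psme4 ran from -0.23 to 0.0095 in KO, from -0.20 to -0.034 in KI (0.035 with library totals) and from -0.12 to 0.13 between them. The share of Psma8 was 89.6%, 89.8% and 90.6% in WT, KO and KI with the longest transcript, 91.6%, 91.7% and 92.4% with the longest coding sequence, and 96.0% in KI without KI 4. With the replicate number as a block, 5 members were higher and 9 lower in KO (beside 15.96% and 13.8% of all genes). In KI, 3 were higher and 8 lower in that fit (beside 15.2% and 15.8%). Psmc1 in KO and Psmd7 in KI lost their calls in it. Psmd9 and Psmc1 in KO lost their calls most often, on leaving out 8 and 9 of the libraries, and Psmd7 in KI on leaving out 5. Psmb2 lost its call on leaving out 4 of the libraries in KO and 4 in KI, Psmd1 in KO on leaving out 4, and Psmc6 in KI on leaving out 2. Depth limits Psmb8, Psmb9, Psmb10, Psmb11 and Psme2b.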
